A study of Mus musculus with 8 samples.

Results

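The P2 purinergic receptors are the cell-surface receptors for nucleotides released outside the cell, and 8 of their genes that are known from microglia were chosen by gene symbol: P2rx4, P2rx7, P2ry1, P2ry2, P2ry6, P2ry12, P2ry13 and P2ry14. They are 8 of the 31406 genes in the count table, each symbol matched 1 gene identifier, and all 8 passed the filter on low counts that left 18756 genes for testing. None of the 8 passed an adjusted p-value of 0.05 between the treatments. The levels of the 8 genes differed from each other far more than they differed between the treatments, with P2ry6 and P2rx4 at the top and P2ry12, P2ry13 and P2ry14 at the bottom of the order.

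P2 receptors fall into a pair of classes. The P2X receptors are channels that open when ATP binds and let calcium and sodium in, whereas the P2Y receptors are G protein-coupled and read ATP, ADP, UTP, UDP or UDP-glucose. In microglia, the immune cells of the brain, ATP and ADP leaking from injured cells draw out and orient cell processes through P2ry12, UDP promotes the uptake of debris through P2ry6, and strong stimulation of P2rx7 leads to release of interleukin-1β. P2ry12 is also a widely used marker of unstimulated microglia, and inflammatory stimuli are known to lower it.

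The cells were primary cultures of striatal microglia from wild-type C57/BL6 mouse pups of 2 to 4 days, kept for 15 days and then activated for 48 h with LPS, a bacterial cell wall component, and interferon-γ. Both groups of 4 libraries received SCH 58261, an antagonist of the adenosine A2A receptor, at 24, 32 and 40 h of activation. The dual group also received 2-Cl-IB-MECA, an agonist of the adenosine A3 receptor, at 200 nM, and the other group is called the antagonist group. The comparison therefore asks what the A3 agonist added to the A2A antagonist in cells that were all activated. No sample of the series is of resting cells or of activated cells without ligand. The titles of the samples and the names of the count columns give this grouping, but the treatment field of the labels contradicts it: it lists the A3 agonist for the 4 libraries whose title has the A2A antagonist by itself and omits it for the others. Which group is called higher or lower thus depends on the titles being right. The pups came from 4 pregnant animals in all, and no litter, date or batch was given for any library, so the p-values measure the spread between cultures whose independence is not stated.

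Total counts were 38427491 to 45878639 per antagonist library and 32630602 to 45544451 per dual library. Pairs of libraries of 1 group differed by 3.80 to 9.43 times the chi-square per degree of freedom that counting noise gives, so no library was a copy of another of its group. Levels are given as CPM, counts scaled to a common library size, here with TMM factors, which make libraries comparable when a few genes take up many counts. The edgeR quasi-likelihood test called 39 of the 18756 genes (9 higher and 30 lower in the dual group), which is 0.208% of the genes tested. With library sizes set by the summed microglia markers in place of TMM, 2213 genes were called (2188 higher, 25 lower), and the median of all genes moved from 0.0038 to 0.11 on the log2 scale.

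The label of the cells was compared with marker genes of the cell types a brain culture can hold. The 11 microglia markers summed to 1983 to 2146 CPM in the antagonist group and to 1882 to 1975 CPM in the dual group, so the groups did not overlap (two-sided exact permutation test, p = 0.0286, the smallest that 4 against 4 libraries can give, and 0.171 after adjustment over the 6 marker lists). The 8 astrocyte markers summed to 5804 to 6271 CPM over all libraries and the 6 fibroblast markers to 2260 to 2879 CPM, both above the microglia sum in every library. The oligodendrocyte lineage sum was 808 to 899 CPM, the neuron sum 120 to 135 CPM and the endothelial sum 49.0 to 62.2 CPM, and no listed marker in the table was at 0 in a library. The cultures therefore held RNA of several cell types beside microglia, and a receptor gene that astrocytes or fibroblasts also use cannot be assigned to microglia here. The study judged purity with antibodies to CD11b and reported that nearly all cells were microglia. That is a share of labelled cells, an unlike measure to these sums of marker RNA. Itgam, the gene of CD11b, was at 125 CPM with the antagonist and 129 CPM with both ligands. In bulk RNA, fewer cells of a type and less RNA per cell cannot be told apart.

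**Figure D1:**
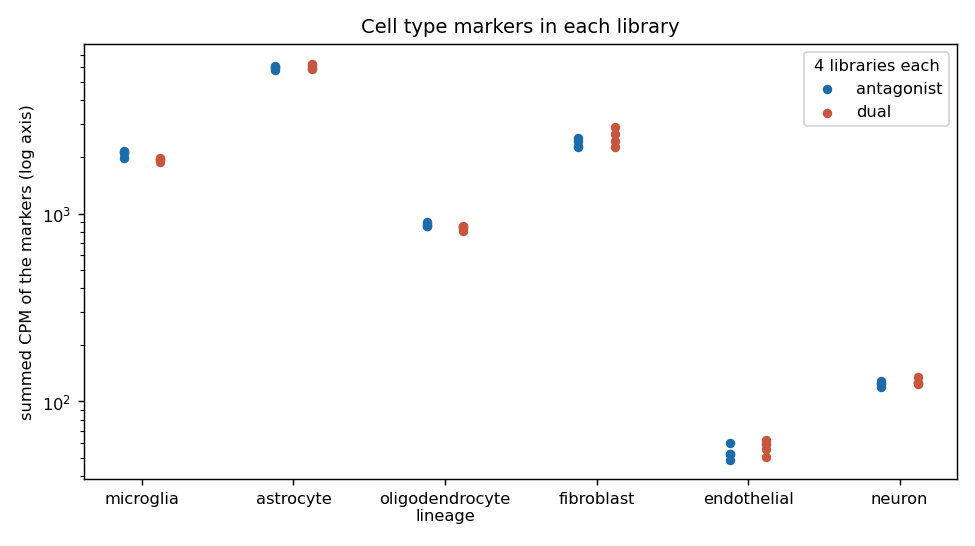
Summed CPM (log axis) of the markers of 6 cell types in each library, with the 4 antagonist libraries beside the 4 dual libraries. The microglia sums do not overlap between the groups (1983 to 2146 against 1882 to 1975 CPM), and the astrocyte sums lie between 5804 and 6271 CPM in all 8 libraries.

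The genes lie on 3 chromosomes of the mouse genome (build GRCm38). P2rx7 and P2rx4 follow each other on chromosome 5 with 16.111 kb between them. P2ry6 and P2ry2 lie 21.918 kb apart on chromosome 7. P2ry14, P2ry13 and P2ry12 form a row on chromosome 3, with gaps of 54.273 and 5.389 kb, inside the span of Med12l on the opposite strand, and P2ry1 lies 1739.923 kb further on. Med12l, with 352 to 510 counts per library, shares 9 exonic bases with P2ry12 and 0 with the other genes of the row. Words of 31 bases that also occur in other genes made up 23.0% of P2ry1, 4.43% of P2rx4, 1.94% of P2rx7 and 0.180% of P2ry14, and 0 in the other 4. The counting of the authors is not stated to use strand, so reads of a gene and of its antisense partner cannot be told apart where their exons overlap.

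P2rx4 and P2rx7 are the channels among the members and are neighbours in the genome. The 250 bases before their start sites are printed because P2rx4 had the smallest p-value of the 8 genes, with its neighbour beside it. The sequences are those of RefSeq on GRCm38.p6, plus strand, P2rx4 at chr5:122707294-122707543 and P2rx7 at chr5:122643677-122643926, the first of its listed starts. Capitals mark the core of the cyclic AMP response element (TGACG, read on the reverse strand as CGTCA), since A2A and A3 receptors act on cyclic AMP.
P2rx4: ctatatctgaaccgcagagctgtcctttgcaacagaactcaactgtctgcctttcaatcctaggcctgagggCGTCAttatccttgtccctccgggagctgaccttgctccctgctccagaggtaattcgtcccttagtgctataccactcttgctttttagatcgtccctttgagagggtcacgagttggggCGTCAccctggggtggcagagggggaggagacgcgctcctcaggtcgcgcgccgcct
P2rx7: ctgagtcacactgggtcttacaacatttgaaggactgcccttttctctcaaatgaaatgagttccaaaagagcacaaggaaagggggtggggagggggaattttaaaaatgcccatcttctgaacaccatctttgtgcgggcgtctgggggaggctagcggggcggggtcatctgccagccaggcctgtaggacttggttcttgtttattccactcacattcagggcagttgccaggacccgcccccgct

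The core occurs in the P2rx4 window at 178 and 57 bases before the start site, and in neither P2rx7 window. It is common, since 17.8% of the 32851 promoters of the table hold it on either strand. The full element TGACGTCA (1.55% of promoters), the PU.1 motif GAGGAAGT (2.44%), the interferon-γ activated site TTCNNNGAA (7.02%) and the core of the interferon-stimulated response element (2.98%) were found in no window of the 7 members with an entry. The core GAGGAA shared by ETS factors, which is part of the PU.1 motif and is held by 23.3% of promoters, stood 48 bases before the start of P2ry13 and at 3 sites in the 4 windows of P2ry14, of which 2 overlap, nearest at 21 bases before a start. P2ry6 had no entry.

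P2rx4 (ENSMUSG00000029470, chromosome 5, 122707544 to 122729738, plus strand) encodes an ATP-gated channel that microglia raise after nerve injury. It had 71.8, 71.5, 76.7 and 76.1 CPM in antagonist replicates 1 to 4 and 71.8, 71.8, 68.4 and 66.8 CPM in dual replicates 1 to 4. Replicates 3 and 4 were the high ones with the antagonist and the low ones with both ligands, and the groups overlapped. The means of P2rx4 were 74.0 ± 2.76 and 69.7 ± 2.51 CPM (SD, n = 4 each). The edgeR log2 fold change was -0.087 (SE 0.040, 95% interval -0.17 to -0.0027), with an unadjusted p of 0.0438 and a Benjamini-Hochberg adjusted p of 0.371 over all genes. A two-sided exact permutation test of the CPM gave p = 0.143. The unadjusted p was above 0.05 without antagonist replicate 3 or 4 (0.126 and 0.116) or dual replicate 3 or 4 (0.0954 and 0.107). As a fold of the antagonist level, the interval of P2rx4 ran from 0.888 to 0.998, without adjustment for the number of genes tested. When library sizes were set by the microglia markers the log2 fold change was 0.023, which is -0.090 relative to the median of all genes under that scaling.

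P2rx7 (ENSMUSG00000029468, chromosome 5, 122643911 to 122691432, plus strand) encodes the channel that needs high ATP and whose opening lets potassium out of the cell, a trigger of the NLRP3 inflammasome. Its antagonist replicates had 26.9, 27.4, 29.7 and 29.5 CPM and its dual replicates 26.4, 26.9, 25.8 and 28.7 CPM. The groups overlapped through dual replicate 4, and the other 3 dual libraries lay below every antagonist library. The means were 28.4 ± 1.42 and 26.9 ± 1.25 CPM (SD, n = 4 each), and the log2 fold change was -0.077 (SE 0.051, edgeR adjusted p = 0.567), or 0.032 with library sizes set by the microglia markers. The interval of the fold ran from 0.880 to 1.02. Without dual replicate 4 the log2 fold change of P2rx7 was -0.11, with an unadjusted edgeR p of 0.0445 and an adjusted p of 0.399.

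The ratio of P2rx7 to P2rx4 counts within a library does not depend on library scaling. It was 0.375, 0.384, 0.388 and 0.388 in the antagonist libraries and 0.367, 0.375, 0.377 and 0.429 in the dual libraries. Dual replicate 4 was the high one, dual replicate 3 lay inside the antagonist range and dual replicates 1 and 2 lay below it. The mean log2 ratios differed by 0.0094 (two-sided exact permutation test, p = 0.971, also 0.971 after adjustment over the 3 ratios tested), and by -0.041 without dual replicate 4.

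P2ry6, P2ry2 and P2ry1 couple to Gq, which raises intracellular calcium through phospholipase C and IP3. P2ry6 (ENSMUSG00000048779, chromosome 7, 100937630 to 100974649, minus strand), the receptor for UDP, had 44.0, 48.9, 48.8 and 47.9 CPM with the antagonist and 46.9, 48.8, 44.1 and 44.8 CPM with both ligands. Antagonist replicate 1 and dual replicates 3 and 4 formed the low end, and the ranges of the groups lay nearly on top of each other. The means were 47.4 ± 2.31 and 46.1 ± 2.12 CPM (SD, n = 4 each), with a log2 fold change of -0.041 (SE 0.046, edgeR adjusted p = 0.769), or 0.069 with the microglia marker scaling. The interval limits the level of P2ry6 in the dual group to between 0.909 and 1.04 times that of the antagonist group.

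P2ry2 (ENSMUSG00000032860, chromosome 7, 100996568 to 101012866, minus strand), a receptor for ATP and UTP, had 17.7, 18.8, 18.7 and 18.1 CPM with the antagonist. With both ligands it had 17.8, 20.1, 16.2 and 16.7 CPM, a wider spread that enclosed the antagonist range. Its log2 fold change was -0.053 (SE 0.065, edgeR adjusted p = 0.791), or 0.056 with the microglia marker scaling. It was -0.016 without dual replicate 3 and -0.12 without dual replicate 2. The means were 18.3 ± 0.492 and 17.7 ± 1.72 CPM (SD, n = 4 each).

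P2ry1 (ENSMUSG00000027765, chromosome 3, 61002795 to 61008982, plus strand), a receptor for ADP, had 10.2, 10.4, 9.50 and 9.33 CPM with the antagonist and 9.59, 10.3, 9.19 and 11.4 CPM with both ligands. Dual replicate 4 was the highest of the 8 libraries and dual replicate 3 the lowest. The log2 fold change was 0.037 (SE 0.079, edgeR adjusted p = 0.895), and -0.028 without dual replicate 4. The antisense gene Gm37035 covers 992 of the 4291 exonic bases of P2ry1, and had 3 to 11 counts in the antagonist libraries and 0 to 3 in the dual libraries, where P2ry1 had 313 to 506 counts over all libraries.

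P2ry12, P2ry13 and P2ry14 couple to Gi, which lowers cyclic AMP, and rested on few counts. P2ry12 (ENSMUSG00000036353, chromosome 3, 59216272 to 59262871, minus strand), the ADP receptor that steers microglial processes, had 75, 69, 72 and 67 counts in the antagonist libraries and 48, 68, 103 and 111 in the dual libraries. In CPM these were 1.94, 1.52, 1.72 and 1.47 against 1.47, 1.79, 2.24 and 2.50. Dual replicates 3 and 4 exceeded every antagonist library, and dual replicate 1 was the lowest of the 8. The log2 fold change was 0.28 (SE 0.18, 95% interval -0.093 to 0.66, edgeR adjusted p = 0.539), and the two-sided exact permutation test gave p = 0.257. It was 0.16 without dual replicate 4 and 0.40 without dual replicate 1, and the interval allows a level in the dual group from 0.938 to 1.58 times that of the antagonist group.

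P2ry13 (ENSMUSG00000036362, chromosome 3, 59207892 to 59210882, minus strand), a further ADP receptor, had 42, 55, 45 and 39 counts in antagonist replicates 1 to 4 and 34, 37, 56 and 27 in the dual replicates. These were 1.09, 1.21, 1.08 and 0.858 CPM against 1.04, 0.972, 1.22 and 0.609 CPM, with dual replicate 4 the lowest and dual replicate 3 the highest of all libraries. The log2 fold change of -0.14 (SE 0.23, edgeR adjusted p = 0.855) was 0.034 without dual replicate 4. P2ry13 and its neighbour P2ry12 were thus at opposite ends of their ranges in dual replicate 4.

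P2ry14 (ENSMUSG00000036381, chromosome 3, 59113855 to 59153618, minus strand), the receptor for UDP-glucose, had 39, 58, 44 and 57 counts in the antagonist libraries and 31, 39, 31 and 34 in the dual libraries. In CPM these were 1.01, 1.28, 1.05 and 1.25 against 0.950, 1.03, 0.675 and 0.767. Dual replicates 3 and 4 lay below every other library, and the groups overlapped only through dual replicate 2 and antagonist replicate 1. The means were 1.15 ± 0.136 and 0.854 ± 0.161 CPM (SD, n = 4 each). The log2 fold change was -0.44 (SE 0.21, 95% interval -0.89 to -0.00038), with an unadjusted p of 0.0498, an edgeR adjusted p of 0.390 and an exact permutation p of 0.0571. It was the largest absolute log2 fold change of the 8 genes, and its unadjusted p was above 0.05 without antagonist replicate 2 or 4 (0.124 and 0.114) or dual replicate 3 or 4 (0.141 and 0.105).

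The spread of these 3 genes was set beside that of counting alone. The coefficient of variation of P2ry14 was 11.8% with the antagonist and 18.9% with both ligands, where counting alone gives 14.2% and 17.2%. That of P2ry12 was 12.9% and 23.0% against 11.9% and 11.01% from counting, and that of P2ry13 was 13.8% and 26.7% against 14.9% and 16.1%. In the dual group the observed values of these 3 genes thus lay above those of counting. A spread over so few libraries is itself uncertain, and the excess was not tested. For P2rx4, with 2344 to 3457 counts per library, the observed 3.73% and 3.60% exceeded the 1.78% and 1.89% of counting in both groups.

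**Figure D2:**
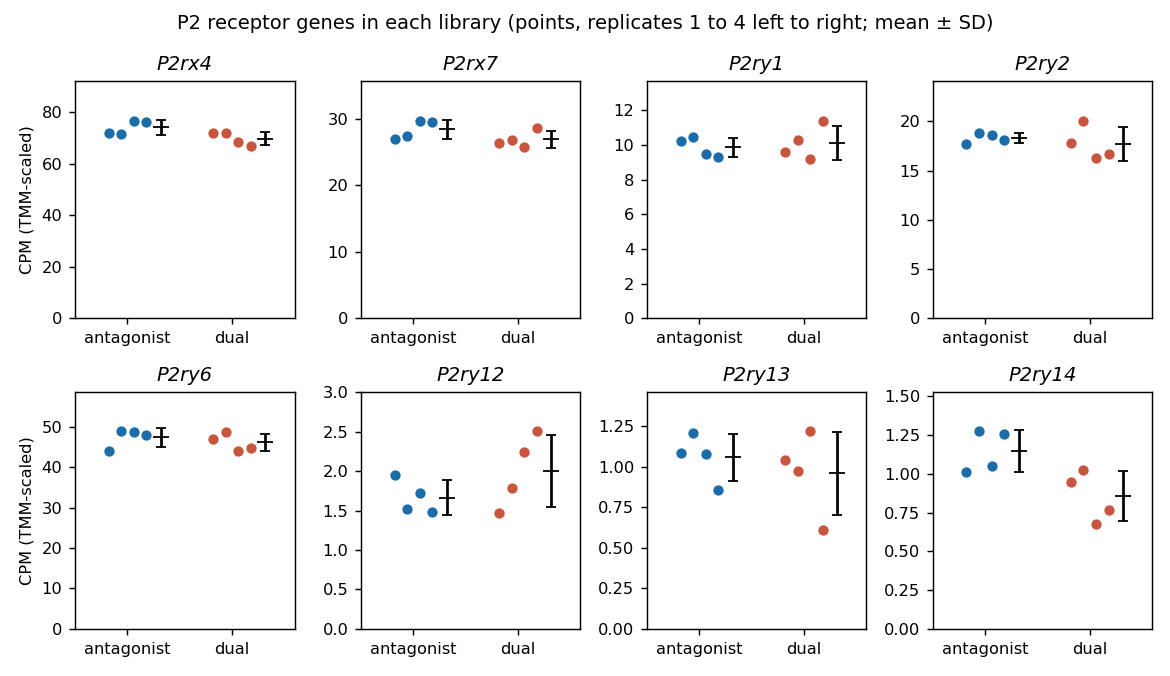
CPM of the 8 receptor genes in each library (points, replicates 1 to 4 from left to right in each group) with the mean and SD of each group (n = 4), on axes that start at 0 and differ between genes. The groups overlap for all 8 genes, and P2ry14 comes nearest to separation, at 1.01 to 1.28 against 0.675 to 1.03 CPM.

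Taking the 8 genes side by side, 6 had a lower and 2 (P2ry1 and P2ry12) a higher mean in the dual group, and 4 of the 6 (P2rx4, P2rx7, P2ry2 and P2ry6) turned higher with library sizes set by the microglia markers. Relative to the median of all genes, 6 were below it under either scaling. None was called by edgeR, where 0.208% of all genes were, and 2 (P2rx4 and P2ry14, both lower) had an unadjusted p under 0.05, where 12.8% of all genes did, 6.81% lower and 5.98% higher. This count was 0 with upper-quartile or total-count scaling, at a minimum count of 50 (which left 6 members), and without antagonist replicate 4 or dual replicate 3. It was 1 with the microglia marker scaling (P2ry12) and 1 without dual replicate 4 (P2rx7). Without dual replicate 1 it was 3, with P2ry12 beside P2rx4 and P2ry14. The libraries of the groups did not overlap for 0 of the 8 genes and for 7.42% of all genes. DESeq2 called 0 of the 5 members to which it gave an adjusted p, against 3.37% of the 11313 genes with one, and gave none for P2ry12, P2ry13 and P2ry14; 1 member (P2rx4) had an unadjusted p under 0.05 there. The median log2 fold change of the 8 genes was -0.065, beside 0.0038 for all genes tested, of which 48.5% were negative. It ranged from -0.089 to -0.028 when 1 library was left out, with -0.028 without dual replicate 4 and -0.040 without dual replicate 3.

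**Figure D3:**
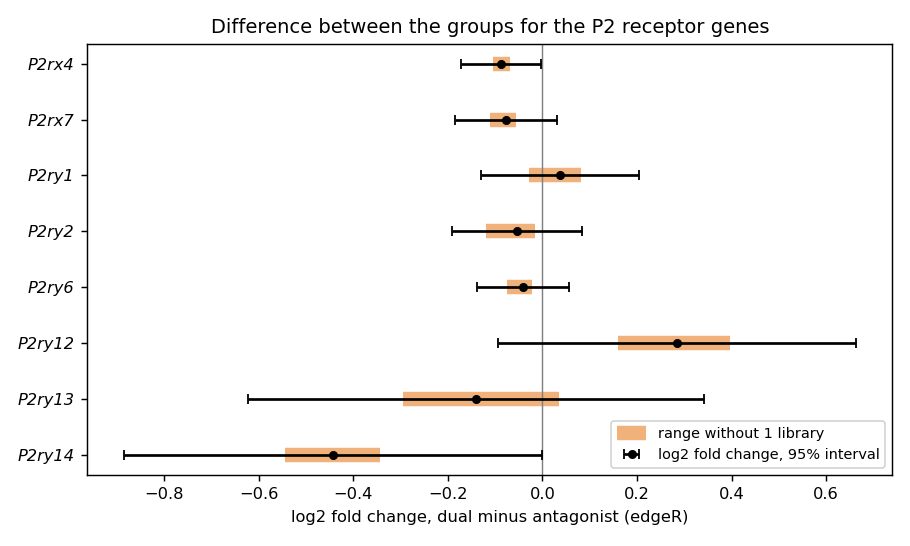
Log2 fold change of each receptor gene, dual minus antagonist, from edgeR with TMM scaling (points, with 95% intervals as lines) and the range of the estimate when each of the 8 libraries was left out in turn (shaded). The intervals of P2rx4 and P2ry14 end just below 0, the other 6 include 0, and with library sizes set by the microglia markers P2rx4, P2rx7, P2ry2 and P2ry6 turn positive but stay below the median of all genes (-0.090, -0.080, -0.056 and -0.043 relative to it).

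The order of the receptor genes was compared on CPM per kilobase of gene length, the scale on which levels of different genes can be set side by side. P2ry6 was highest, at 16.2 ± 0.749 CPM per kilobase over the 8 libraries (SD), above 81.7% of all genes tested. P2rx4 followed at 10.2 ± 0.477, above 72.2% of genes. The order of P2ry6 and P2rx4 depends on their deposited lengths of 2887 and 7025 bases, since P2rx4 was the higher in CPM. P2rx7 and P2ry2 stood together at 4.63 ± 0.246 and 4.59 ± 0.310 CPM per kilobase, and P2rx7 was the higher in 4 of the 8 libraries. P2ry1 came next at 2.33 ± 0.172.

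The Gi-coupled genes had the lowest levels. P2ry12 had 0.720 ± 0.149 CPM per kilobase, P2ry13 0.399 ± 0.0792 and P2ry14 0.0906 ± 0.0189, so that P2ry12 lay above 24.0% and P2ry14 above 2.64% of the genes tested. The place of P2ry14 depends on its deposited length of 11059 bases, where P2ry12 has 2546 and P2ry13 2528. In CPM, P2ry14 and P2ry13 had means of 1.15 and 1.06 with the antagonist and of 0.854 and 0.961 with both ligands. Apart from P2rx7 and P2ry2, no neighbours in the order overlapped in their ranges over the 8 libraries, and each was the higher of its pair in 8 of 8.

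Shares of the summed level show the same order within the family. P2ry6 made up 41.2% of the summed CPM per kilobase in the antagonist group and 41.5% in the dual group, and P2rx4 26.4% and 25.8%. P2ry12 made up 1.64% and 2.05%. The sum of the 8 genes was 39.9 ± 1.2 CPM per kilobase with the antagonist (38.2 to 41.0) and 38.5 ± 1.38 with both ligands (37.0 to 40.3), and the groups overlapped.

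**Figure D4:**
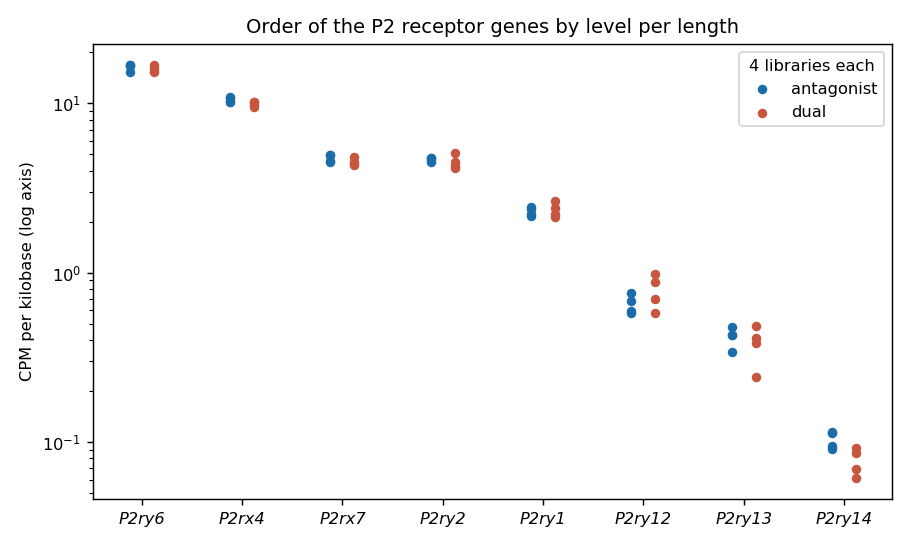
CPM per kilobase of gene length (log axis) of the 8 receptor genes in the antagonist and dual libraries, ordered by their mean over all 8. The genes span from 16.2 CPM per kilobase for P2ry6 to 0.0906 for P2ry14, and only P2rx7 and P2ry2 overlap.

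Within a library, P2ry6 counts were 22.6, 32.2, 28.3 and 32.5 times those of P2ry12 in the antagonist group. In the dual group they were 31.9, 27.3, 19.7 and 17.9 times, and dual replicates 3 and 4 lay below every antagonist library. The mean log2 ratios differed by -0.28 (two-sided exact permutation test, p = 0.20, or 0.471 after adjustment over the 3 ratios), and by -0.15 without dual replicate 4 and -0.43 without dual replicate 1. The P2ry13 to P2ry12 ratio was 0.641 ± 0.107 with the antagonist and 0.510 ± 0.194 with both ligands (SD, n = 4 each), a log2 difference of -0.42 (exact permutation p = 0.314, adjusted 0.471) that was -0.096 without dual replicate 4.

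The other genes of the pathway were read from 7 lists. These cover the rest of the P2 family, the release and breakdown of nucleotides, the signalling arms downstream and the homeostatic state of microglia. Of 78 listed genes 68 were tested, 0 were called by edgeR, and 16 had an unadjusted p under 0.05 (10 higher and 6 lower in the dual group), beside 12.8% of all genes. With library sizes set by the microglia markers 15 listed genes were called, each of them higher, beside 11.8% of all genes, nearly all of which were higher under that scaling.

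Among 9 further P2 family genes 5 were tested. Gpr17, a relative of the P2Y receptors known from oligodendrocyte precursors, had 41.6 and 45.1 CPM (log2 fold change 0.12, SE 0.048, edgeR adjusted p = 0.302), and P2ry10b had 11.2 and 9.95 CPM (-0.17, adjusted p = 0.347). P2rx6 was at 9.11 CPM in both groups. The genes that did not pass the filter were P2rx1 with 6 to 20 counts per library, P2rx2 with 0 to 6, P2ry10 with 0 to 4 and P2ry4 with 0 to 3.

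Nucleotides leave cells through pannexins, connexin hemichannels, LRRC8 anion channels and vesicles loaded by Slc17a9. Of the 9 tested genes of release, 1 was higher and 1 lower at an unadjusted p under 0.05, beside 5.98% higher and 6.81% lower of all genes, and the shares of the lists that follow are to be read against the same values. Gja1, the connexin of astrocytes and fibroblasts, had 296 and 325 CPM (log2 fold change 0.14, edgeR adjusted p = 0.329), and Lrrc8a, the obligatory LRRC8 subunit, had 27.2 and 24.9 CPM (-0.13, adjusted p = 0.338). Of the 10 tested genes of enzymes that break nucleotides down, Entpd5 had 53.3 and 56.9 CPM (0.095, adjusted p = 0.362) and was the single one with an unadjusted p under 0.05.

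Downstream of the Gq-coupled receptors, IP3 opens calcium stores through the IP3 receptors. Itpr2 had 67.0 ± 2.20 and 72.8 ± 1.28 CPM (log2 fold change 0.12, edgeR adjusted p = 0.172) and Itpr1 had 74.2 ± 3.05 and 80.7 ± 2.18 CPM (0.12, adjusted p = 0.186), SD with n = 4 each. The libraries of the groups did not overlap for either gene, as for 7.42% of all genes. Gna12, a G protein subunit, had 158 and 149 CPM, again without overlap (-0.093, adjusted p = 0.248). The list of 19 genes behind these values covers P2Y receptors in general and holds subunits of Gi and of other G proteins beside the Gq genes. Of the 19 genes 4 were higher, a Gi subunit among them, and 1 (Gna12) was lower at an unadjusted p under 0.05. The shares of all genes were 5.98% and 6.81%, and the median log2 fold change of the 19 genes was 0.0099.

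In the arm of P2rx7, 2 of 10 genes were lower at an unadjusted p under 0.05 and 0 higher (6.81% and 5.98% of all genes), with a median log2 fold change of -0.049. Pycard, the adaptor of the inflammasome, had 8.60 and 7.48 CPM (-0.20, edgeR adjusted p = 0.288), and Il1a had 300 and 282 CPM (-0.093, adjusted p = 0.387). Il1b, the main product released after P2rx7 opens, was at 720 and 701 CPM (-0.039, adjusted p = 0.671). In the arm of P2rx4, 3 of 7 genes were higher at an unadjusted p under 0.05 and 0 lower (5.98% and 6.81% of all genes). The median log2 fold change of the 7 genes was 0.073. Fn1, a matrix protein that fibroblasts also make, was at 976 and 1082 CPM (0.15, edgeR adjusted p = 0.197). Bdnf, the growth factor released after P2rx4 stimulation, was at 21.6 and 23.3 CPM (0.11, adjusted p = 0.384).

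Of the 8 tested genes of the homeostatic state, which P2ry12 also marks, Fcrls had the smallest p. It had 33.1 ± 0.903 CPM with the antagonist and 26.2 ± 4.57 CPM with both ligands (SD, n = 4 each), and the groups did not overlap. The log2 fold change was -0.33 (SE 0.083, edgeR adjusted p = 0.0952). Its adjusted p was 0.000923 without the low-count filter, 0.0137 in DESeq2 and 0.0318 without dual replicate 4. Fcrls was called in none of the other alternatives, the microglia marker scaling among them. Cx3cr1, the fractalkine receptor of microglia, was at 92.7 and 94.8 CPM. Of the 8 homeostatic genes 7 had a negative and 1 a positive log2 fold change (median -0.051), where 48.5% of all genes were negative. Of the 11 microglia markers 8 had a lower and 3 a higher mean in the dual group, 5 lower and 1 higher at an unadjusted p under 0.05. C1qa was called (log2 fold change -0.24, edgeR adjusted p = 0.0240), while Csf1r stood on the other side (0.11, adjusted p = 0.171), both without overlap of the groups. The part of microglial RNA content in the values of the 8 receptor genes was not tested.

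The genes whose pattern over the 8 libraries was most like that of P2rx4, which had both the smallest p and the highest CPM of the 8 receptor genes, were Sirpa (Pearson r = 0.971), a phagocytosis-limiting receptor of myeloid cells, Oasl1 (0.970), an interferon-induced gene, and H2-T22 (0.966), an MHC class I-like gene whose relatives can share its reads. These were the highest among 11051 genes with a mean log2 CPM of 3 or more. The 8 points are the libraries of both groups, each gene pair was read from the same libraries, and the values are a description only.

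For activated cells without any ligand, per-library control values were deposited but were not used, since they belong to no sample of the series. Only the mean normalized counts that the authors gave beside those of the antagonist group were used, with no error. The study's sources differ on the number of control libraries behind these means. The authors' mean of P2rx4 was 3190 with the antagonist and 2872 in control, a ratio of 1.11, and that of P2rx7 was 1224 against 957.6, a ratio of 1.28. Among the Gq-coupled receptors the ratio of antagonist to control was 1.11 for P2ry1, 1.06 for P2ry2 and 0.951 for P2ry6. Among the Gi-coupled receptors it was 0.772 for P2ry12 (71.7 against 93.0), 1.27 for P2ry13 (45.6 against 36.1) and 0.734 for P2ry14 (49.5 against 67.4).

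Thus 5 of the 8 authors' means were higher and 3 lower with the antagonist, and 0 were past 1.5-fold, where 14.6% of the 18861 genes with a mean of at least 10 were (3.71% higher and 10.9% lower). Past 1.2-fold there were 4 members, 2 higher (P2rx7 and P2ry13) and 2 lower (P2ry12 and P2ry14), where 36.8% of all genes were (14.9% higher and 21.9% lower). Past 2-fold there were 0 members and 6.12% of all genes. The median log2 ratio of the 8 genes was 0.12, beside 0.012 for all genes.

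The marker lists moved in the same means. All 6 fibroblast markers were past 1.5-fold lower with the antagonist (ratios 0.216 to 0.585), 3 of 8 astrocyte markers were past it higher, and the 11 microglia markers had ratios from 0.864 to 1.35. Of the 8 genes of the homeostatic state of microglia, 3 were past 1.5-fold lower and 0 higher (ratios 0.520 to 1.41). The same held for 2 of 5 endothelial and 2 of 5 neuron markers. No oligodendrocyte lineage marker was past it. Of the 10 genes of nucleotide breakdown, 4 were past 1.5-fold lower and 1 higher with the antagonist, beside 10.9% and 3.71% of all genes. The lower ones, named after their values were seen like the others of this paragraph, were Enpp1 at a ratio of 0.171, Entpd3 at 0.257, Nt5e, the enzyme that makes adenosine from AMP, at 0.363 and Alpl at 0.570, and the higher one was Entpd2 at 1.59. Of the 9 genes of nucleotide release, Gja1 at 0.426 and Slc17a9 at 0.572 were past it lower and Panx2 at 1.81 higher. The part of the fibroblast RNA in these ratios and in those of the receptors was not tested.

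**Figure D5:**
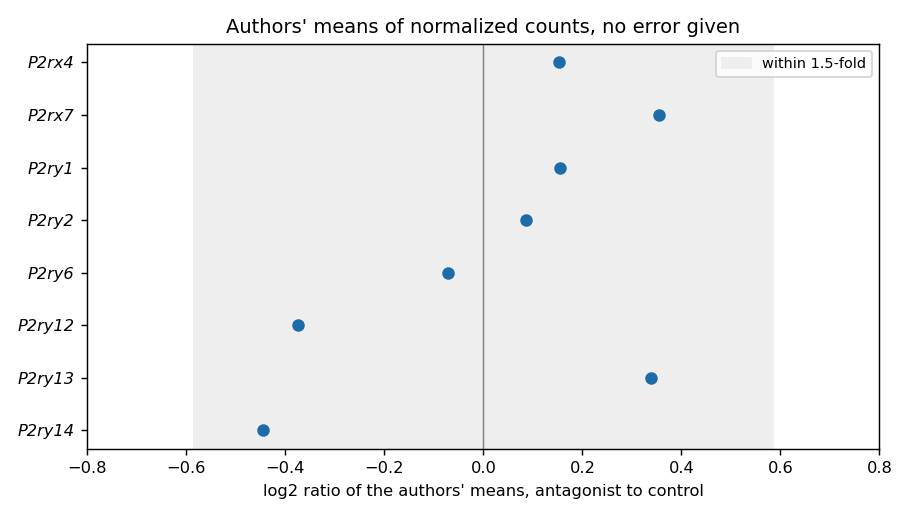
Log2 ratio of the authors' mean normalized counts, antagonist to control, for the 8 receptor genes. No error is shown, since the deposited per-library control values and the authors' own test columns were not used. All points lie inside the shaded band of 1.5-fold, from -0.45 for P2ry14 to 0.35 for P2rx7.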

How the data were processed

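RNA was sequenced from 8 libraries, 4 per group, grouped by their titles. Per the labels and the paper's methods, reads from both ends were aligned by the authors with HISAT2 and counted per gene with featureCounts 1.5.0-p3 on mm10. Whether strand was used, and the annotation release, are not given in the sources used here. The deposited values tested are raw counts per gene. The authors also deposited mean normalized counts per group, used as signal values without error. The columns of their own comparison (log2 fold change, p and adjusted p) were not used. Also unused were 9 columns of per-sample values of the control libraries, which belong to no sample of the series. The counts of the 30302 genes held by both tables were identical (0 differing values). Of the 31406 genes, 31358 were found by identifier in GENCODE mouse release 21, 97.5% of them with the same coordinates, and gene lengths are the deposited ones.

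Counts were tested with edgeR 4.0.16 (R 4.3.3): filterByExpr with a minimum count of 10, TMM, quasi-likelihood F test without covariates, two-sided p-values adjusted by Benjamini-Hochberg over all 18756 genes tested, called under 0.05. Single values were compared by two-sided exact permutation tests over 70 arrangements. The steps were tested on simulated data, with planted changes larger than the estimates of the receptor genes. That test does not show whether changes of their size would be found. Alternatives were RLE, upper-quartile, total-count and microglia-marker scaling, no filter and a minimum count of 50, DESeq2 1.42.0, limma-voom (limma 3.58.1), a replicate block and leaving out each library. Levels between genes are CPM divided by gene length. All members are named, and of each list genes with an adjusted p under 0.05 or otherwise at most the 3 with the smallest p and the 2 with the highest CPM. The values of 1 listed gene are not reported here. The members and lists were chosen with earlier results of these data known. Motifs were searched on both strands of the RefSeq windows of 250 bases. Precision is limited by the counts, foremost for P2ry12, P2ry13 and P2ry14, with 27 to 111 counts per library.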

Additional observations from a re-analysis of the deposited data

Results flagged for a closer look

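In the dual group the ratio of P2rx7 to P2rx4 counts was 0.367, 0.375 and 0.377 in replicates 1 to 3 and 0.429 in replicate 4. The gap of replicate 4 to its nearest neighbour was 0.851 of the whole range of the group, above Dixon's 95% critical value for 4 samples. Of 22 such groups of values checked this was the 1 past its limit, and chance flags about 1 in 20. The same library had the highest count of P2ry12 and the lowest of P2ry13.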

How the results depend on the processing

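P2 receptor genes called stayed at 0 under all 17 alternatives, although P2ry13 and P2ry14 had no value at a minimum count of 50 and DESeq2 gave no adjusted p for 3 members. With library sizes set by the microglia markers, the log2 fold changes turned to 0.023 (P2rx4), 0.032 (P2rx7), 0.056 (P2ry2) and 0.069 (P2ry6), their median to 0.044, and 2213 genes and 15 pathway genes were called, the median of all genes moving by about as much. Genes called, 39 with TMM, were 366 without the low-count filter, 381 with DESeq2 and 17 with the replicate block; they ranged from 0 to 172 when 1 library was left out (0 without antagonist replicate 4 or dual replicate 3, with 1802 and 2092 at an unadjusted p under 0.05, 5 and 6 without antagonist replicates 2 and 3, and 172 without antagonist replicate 1). Pathway genes called were 2 without the filter (Fcrls and Fn1), 1 with DESeq2 (Fcrls) and 0 to 1 when 1 library was left out (Fcrls without dual replicate 4). Over the libraries left out, P2ry1 ranged from -0.028 (without dual replicate 4) to 0.081, P2ry13 from -0.29 to 0.034 (without dual replicate 4), and the log2 difference of the P2rx7 to P2rx4 ratio from -0.041 (without dual replicate 4) to 0.033, with -0.0011 without antagonist replicate 1. Past 1.2-fold in place of 1.5-fold there were 4 members in the authors' means, and P2ry6 held 26.3% of the summed CPM when it was not divided by length, where P2rx4 was highest. The causes were not tested. Same-numbered libraries of the groups deviated with correlations of -0.16, -0.047, -0.090 and -0.21 over 11051 genes. Differently numbered pairs ran from -0.14 to 0.22 (antagonist 4 with dual 2). The numbers thus gave no sign of pairing, but whether libraries share a litter or batch under another matching was not tested. The block by replicate number changed no call of a member (0 at an unadjusted p under 0.05, where 2 were without it). P2ry12, P2ry13 and P2ry14 had the fewest counts and wider intervals than the other 5 receptor genes.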
